A study of Mus musculus with 19 samples.

Results

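Cells that were positive for a Rex1 reporter after 15 days with AICAR were compared with cells kept without AICAR to the same day. The comparison uses 4 of the 19 libraries of the series, chosen by their labels alone: 3 of AICAR GFP-positive cells and 1 of untreated day-15 cells. All derive from a mouse ES (embryonic stem) cell line with a Rex1-GFPd2 reporter, a destabilised green fluorescent protein (GFP) placed at Rex1, the gene named Zfp42 in the tables. In both groups the cells were first held for 2 days in serum-containing differentiation medium, and those negative for both SSEA1 and GFP were sorted. SSEA1 is a sugar antigen on the surface of undifferentiated mouse ES cells. The sorted cells then stayed in differentiation medium to day 15, with AICAR in the first group and without it in the second. The labels give the AICAR as lasting 15 days, whereas the growth protocol starts it after the sort. The AICAR libraries are titled and labelled as GFP positive, while the untreated library is labelled GFP negative. All 4 titles name the SSEA1-negative and GFP-negative cells of the first sort, and the untreated title names no fraction taken at day 15. The field on sorting reads the same for both groups, so it does not say how the GFP-positive cells were taken. AICAR and the choice of GFP-positive cells cannot be told apart here. Replicates 1 and 2 of the AICAR GFP-positive cells carry those numbers in their titles, and the unnumbered library is called replicate 3.

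Naive pluripotency is the state of the preimplantation epiblast, and ES cells hold it through a network of transcription factors that includes Oct4 (Pou5f1), Sox2, Nanog, Esrrb and Klf4. When differentiation begins, Rex1 is lost early, and ES cells in serum go on to give mesenchymal, contractile and epithelial cells. AICAR is a nucleoside that cells take up and phosphorylate to ZMP. ZMP is an intermediate of purine synthesis and a mimic of AMP, and it activates AMPK, a kinase that senses low cellular energy.

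Reads in genes numbered 12751260, 14233421 and 8262357 in AICAR GFP-positive replicates 1, 2 and 3, and 7712882 in the untreated library. Levels are given below as CPM, read counts scaled to a common library size, and values for the 3 AICAR GFP-positive libraries follow the order of the replicates. Zfp42 had 695, 642 and 455 CPM in AICAR GFP-positive cells and 5.23 CPM in untreated cells. Col1a1, the fibrillar collagen that marks mesenchyme, had 0.241, 0.800 and 43.7 CPM in AICAR GFP-positive cells against 14164 CPM in untreated cells. Zfp42 matched the GFP labels in all 4 libraries. Col1a1, to which no label refers, was far lower in every AICAR GFP-positive library than in the untreated one. Replicate 3 stood apart from the other AICAR GFP-positive libraries. A chi-square of the counts per degree of freedom was 9.84 between replicates 1 and 2, but 47.4 and 44.2 between replicate 3 and each of them. Per the file headers, replicates 1 and 2 belong to a second sequencing project, and replicate 3 and the untreated library belong to the first. The project and whatever else sets replicate 3 apart cannot be told apart. Differences were tested with the edgeR quasi-likelihood test, with p-values adjusted by the Benjamini-Hochberg method over all genes and called below 0.05. With 1 untreated library, the test assumes that it varies like the AICAR GFP-positive ones. The labels do not say that replicates came from separate cultures, so a p-value reflects just the spread among the libraries used, which may be technical.

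Of 14857 genes tested, 3430 rose in AICAR GFP-positive cells and 3453 fell, which is 23.1% and 23.2% of them and 46.3% together. Without replicate 3 the counts were 4500 and 4913, and without replicate 2 they were 1311 and 1552. In the fit without replicate 3, the AICAR GFP-positive libraries are of the second sequencing project and the untreated one of the first. Group and project cannot be told apart in that fit, so its larger counts are not stronger evidence. The median log2 fold change over all tested genes was -0.03. All 3 AICAR GFP-positive libraries lay above the untreated one for 42.1% of genes and below it for 44.6%. Between replicate 3 and the untreated library alone, which share a sequencing project, 18.4% of genes lay over 2-fold higher in replicate 3 and 28.0% over 2-fold lower. A fit with the sequencing project as a further term, chosen after seeing the data, draws its group difference from these same libraries. Of the 77 gene lists examined, those for naive and general pluripotency, replication and ribosome biogenesis held mostly genes that rose. Over all lists of their kind, matrix, contractile, Hox and immune genes mostly fell, and those for AMPK subunits and sterol synthesis had few calls. In a bulk library, fewer cells of a type and less RNA per cell cannot be told apart.

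**Figure D1:**
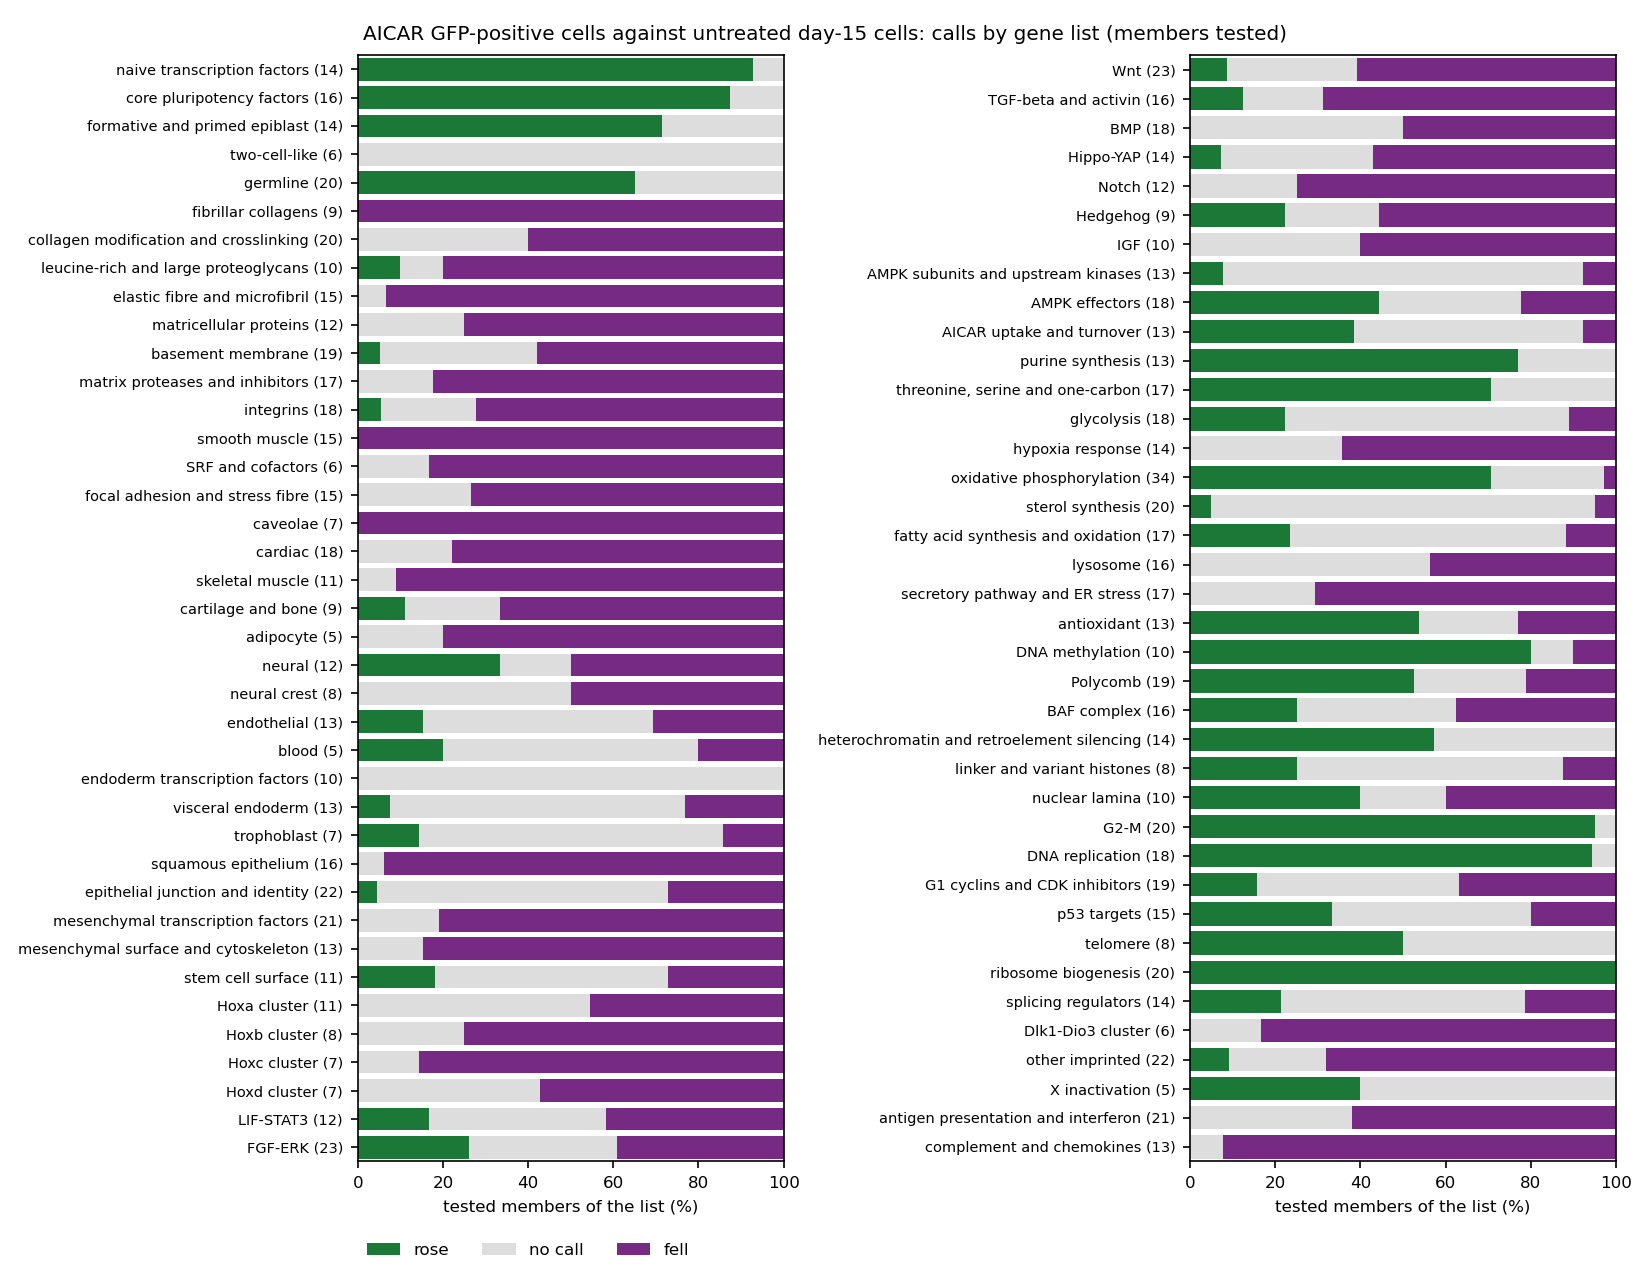
Share of the tested members of each gene list (horizontal axis, %) that rose (green), had no call (grey) or fell (purple) in AICAR GFP-positive cells relative to untreated day-15 cells, with the number tested in brackets. Among all genes tested, 23.1% rose and 23.2% fell.

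**Figure D2:**
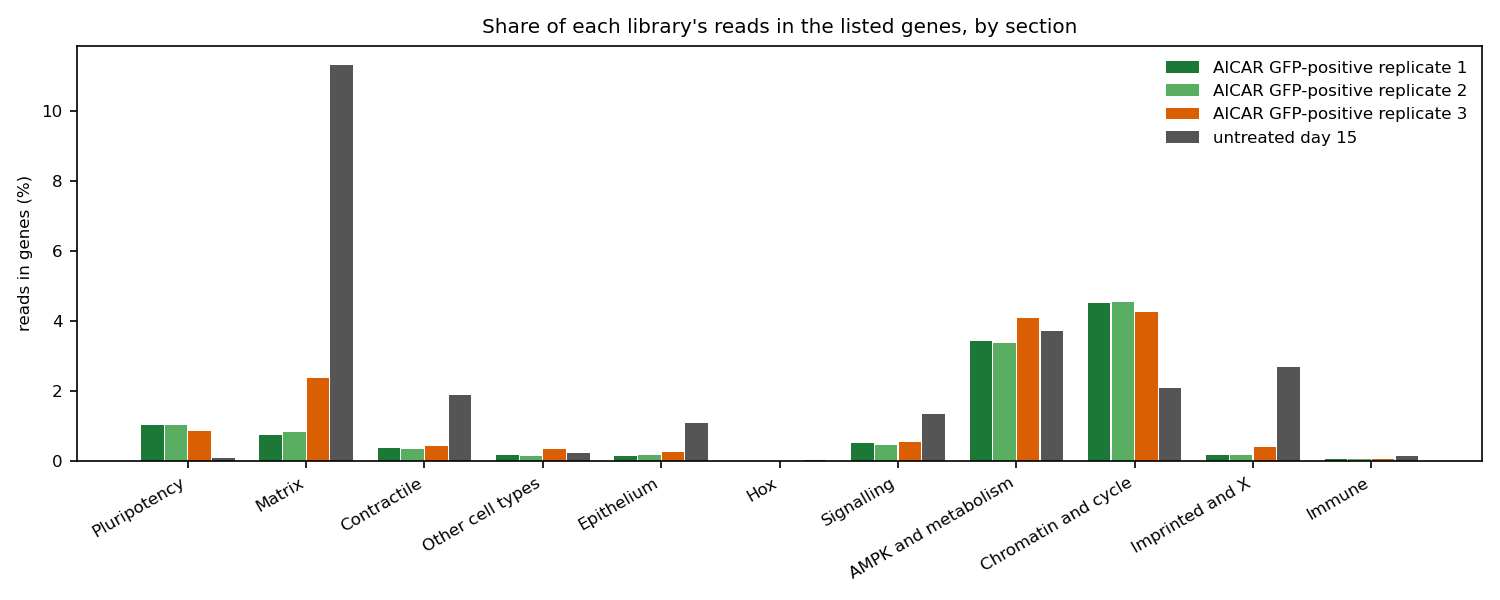
Share of each library's reads in genes (vertical axis, %) that fell on the genes of each section of lists, with 1 bar per library. Matrix genes took 0.734, 0.838 and 2.37% of reads in the AICAR GFP-positive libraries and 11.3% in the untreated one.

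In the pluripotency lists, 50 of 70 tested genes rose (median 3.60, or 3.52 with genes unread in 1 group at their 3-read bound; 3 fell without replicate 1, 7 fell without replicate 3). None fell at an adjusted p below 0.05 by edgeR, against 4 at an unadjusted p below 0.05 and 2 by DESeq2. Medians printed beside a list are of the log2 fold changes of its tested members, to be set against -0.03 over all genes. Counts of calls in a list are to be set against the 23.1% of all tested genes that rose and the 23.2% that fell. A count near these shares is no trait of the list. Of 14 naive transcription factors, 13 rose (median 4.67). Esrrb, an orphan nuclear receptor that binds many naive genes, had 424, 368 and 274 CPM in AICAR GFP-positive cells and 3.11 CPM in untreated cells. Nr0b1, a nuclear receptor cofactor known as Dax1, had 142, 114 and 102 CPM against 1.12 CPM in untreated cells (log2 fold change 6.72, SE 0.38, adjusted p = 0.00186). For both genes every AICAR GFP-positive library lay above the untreated one, as for 42.1% of all genes tested. Replicate 3 was the lowest AICAR GFP-positive library for both. Prdm14, a repressor of FGF signalling and DNA methylation genes, had 29.9, 28.7 and 21.5 CPM in AICAR GFP-positive cells and 0.124 CPM, from a single read, in the untreated library. Tfcp2l1, a naive factor downstream of LIF, had 72.5, 67.8 and 42.6 CPM in AICAR GFP-positive cells and 2.49 CPM in untreated cells (log2 fold change 4.61, SE 0.49, adjusted p = 0.00426). Both rose, and every AICAR GFP-positive library lay above the untreated one, as for 42.1% of all genes tested. The Krüppel-like factors differed among themselves. Klf4 had 349.9, 301 and 299 CPM in AICAR GFP-positive cells against 149 CPM in untreated cells, a change of 1.09 on the log2 scale. Klf5 had 77.5, 81.2 and 96.7 CPM against 68.0 CPM in untreated cells and was the only member of the list without a call (log2 fold change 0.32, SE 0.19, adjusted p = 0.221). Klf2, in contrast, was several times higher, with 191, 229.8 and 137 CPM in AICAR GFP-positive cells and 21.0 CPM in untreated cells. Tbx3, a T-box factor that works beside Klf4 in the network, had 228, 302 and 191 CPM in AICAR GFP-positive cells and 66.8 CPM in untreated cells (log2 fold change 1.84, SE 0.32, adjusted p = 0.0117).

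Among 16 general pluripotency genes, 14 rose (median 5.05). Sox2, the partner of Oct4 on DNA, had 655, 572 and 496 CPM in AICAR GFP-positive cells and 14.2 CPM in untreated cells (log2 fold change 5.34, SE 0.30, adjusted p = 0.00178). Utf1, a chromatin-bound ES cell factor, had 464, 421 and 337 CPM against 5.48 CPM in untreated cells. Dppa5a, an RNA-binding protein of pluripotent cells, had 841, 782 and 519.5 CPM against 9.71 CPM in untreated cells. For all of them every AICAR GFP-positive library lay far above the untreated level, and replicate 3 was the lowest of its group. Sall4, a zinc finger factor also used by other embryonic cells, had 372, 376 and 342 CPM in AICAR GFP-positive cells against 43.4 CPM in untreated cells. Lin28a, which blocks the maturation of let-7 microRNAs, had 42.0, 33.6 and 50.4 CPM against 9.34 CPM in untreated cells (log2 fold change 2.17, SE 0.33, adjusted p = 0.00851). Its relative Lin28b had 5.96, 4.87 and 4.76 CPM in AICAR GFP-positive cells and 1.99 CPM in untreated cells and no call (adjusted p = 0.0725). Dppa3 (Stella), a maternal factor marking naive and germ cells, was low in every library, at 0.966, 0.0727 and 2.38 CPM in AICAR GFP-positive cells and 0.498 CPM in untreated cells. Its AICAR GFP-positive libraries overlapped the untreated one. By the authors' RPKM, which scales reads by exon length and depth, Pou5f1 stood at 1382, 1392 and 1198 RPKM in AICAR GFP-positive cells and 24.6 RPKM in untreated cells.

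Genes of the later, formative and primed epiblast rose beside the naive ones, as 10 of 14 tested genes rose (median 2.70). Nodal and its inhibitor Lefty2 had the largest changes of the list. Nodal, the TGF-beta ligand of the epiblast, had 82.6, 112 and 56.9 CPM in AICAR GFP-positive cells and 1.87 CPM in untreated cells (log2 fold change 5.48, SE 0.60, adjusted p = 0.00444). Its feedback inhibitors Lefty1 and Lefty2 both rose. Lefty2 had 61.8, 62.0 and 58.3 CPM in AICAR GFP-positive cells and 1.49 CPM in untreated cells. Foxd3, a forkhead factor of epiblast and neural crest, had 82.8, 119 and 63.6 CPM against 6.35 CPM in untreated cells. Fgf5, the classic primed marker, had 12, 13.3 and 13.4 CPM in AICAR GFP-positive cells and 2.49 CPM in untreated cells (log2 fold change 2.37, SE 0.36, adjusted p = 0.00835). Pou3f1 (Oct6), another formative factor, varied widely among AICAR GFP-positive libraries, at 6.92, 27.5 and 13.2 CPM against 3.24 CPM in untreated cells, and had no call (adjusted p = 0.0995). Car4, a carbonic anhydrase, lay on the other side without a call, at 7.005, 7.93 and 19.15 CPM in AICAR GFP-positive cells and 33.5 CPM in untreated cells (adjusted p = 0.0858).

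Of 20 germline genes tested, 13 rose (median 4.58, or 3.84 with genes unread in 1 group at their 3-read bound). Mov10l1, an RNA helicase of the piRNA pathway, had 26.0, 35.4 and 29.9 CPM in AICAR GFP-positive cells and 0.124 CPM in untreated cells (adjusted p = 0.00238). Hormad1, a protein of the meiotic chromosome axis, had 25.4, 33.3 and 46.5 CPM against 0.373 CPM in untreated cells. Ddx4 (Vasa), a germ cell RNA helicase, had 21.2, 20.6 and 22.1 CPM against 0.622 CPM in untreated cells. All 3 rose, and every AICAR GFP-positive library lay above the untreated one, as for 42.1% of all genes tested. The untreated values rest on 1 to 5 reads. Asz1, a germ cell adaptor of the piRNA machinery, had no read in the untreated library and 4.35, 3.35 and 13.4 CPM in AICAR GFP-positive cells, which is at least 16.5-fold higher when 0 is set to 3 reads. Prdm1 and Tfap2c, which specify primordial germ cells, had no call. Prdm1 (Blimp1) had 1.13, 2.11 and 1.90 CPM in AICAR GFP-positive cells and 4.23 CPM in untreated cells. Tfap2c had 0.644, 1.89 and 9.99 CPM against 17.4 CPM in untreated cells, with replicate 3 the highest AICAR GFP-positive library (adjusted p = 0.228).

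Genes of the 2-cell-like state, a rare ES cell state that resembles the early embryo, did not pass the edgeR test at an adjusted p below 0.05, while 3 fell at an unadjusted p below 0.05 and 2 by DESeq2. Only 6 of 16 members had enough reads to be tested, all of them Zscan4 paralogs whose reads may be split between near-identical copies. Zscan4c had 0.241, 2.11 and 2.74 CPM in AICAR GFP-positive cells and 12.7 CPM in untreated cells (adjusted p = 0.0685). All AICAR GFP-positive libraries lay below the untreated one for these paralogs, as for 44.6% of all genes tested. Leaving out replicate 3, 5 of the paralogs were called as lower.

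**Figure D3:**
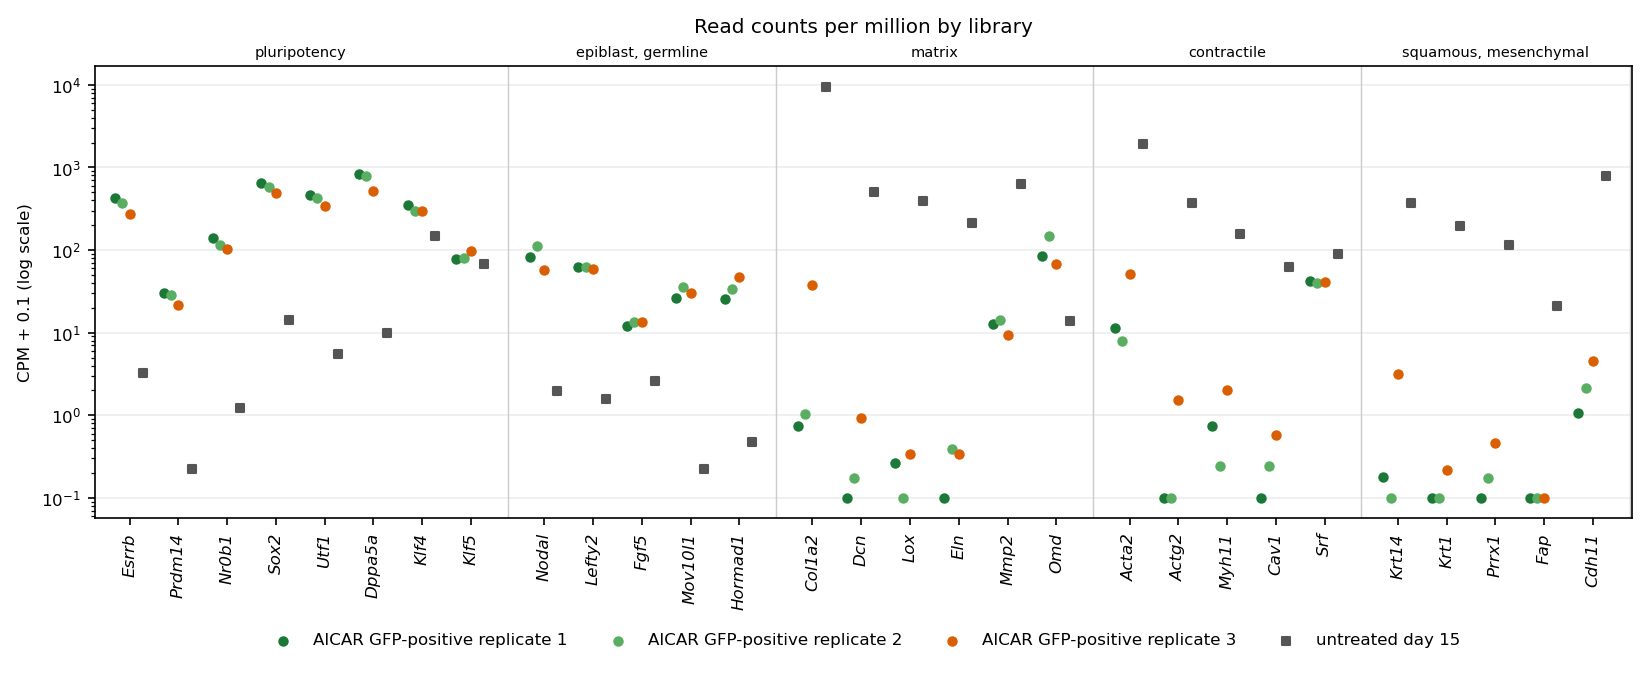
CPM plus 0.1 (vertical log axis) of pluripotency, epiblast, germline, matrix, contractile and squamous or mesenchymal genes in each library; circles are the 3 AICAR GFP-positive libraries and squares the untreated day-15 library. Klf5 and Srf lie close together across libraries, while Mov10l1, Lox and Krt1 are separated by more than 100-fold.

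In the matrix lists, 90 of 120 tested genes fell and 3 rose (median -4.41; 6 rose without replicate 3). All 9 fibrillar collagens, the rope-like collagens of connective tissue, fell (median -7.00). Col3a1 had 0, 0 and 7.85 CPM in AICAR GFP-positive cells against 10157 CPM in untreated cells, and replicate 3 was the only AICAR GFP-positive library with reads. Col1a2 had 0.644, 0.945 and 37.5 CPM in AICAR GFP-positive cells and 9456 CPM in untreated cells (log2 fold change -9.54, SE 2.19, adjusted p = 0.0236). Without replicate 2 neither Col1a1 nor Col1a2 passed the test. Replicate 3 was again the highest of its group and still more than 100-fold below the untreated library. Col5a2, which regulates fibril diameter, was closer between replicates, at 6.52, 5.60 and 15.1 CPM against 1584 CPM in untreated cells (log2 fold change -7.47, SE 0.56, adjusted p = 0.00263).

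Enzymes that modify, fold or crosslink collagen gave 12 of 20 genes that fell (median -3.65). Lox, the lysyl oxidase that crosslinks collagen and elastin, had 0.161, 0 and 0.238 CPM in AICAR GFP-positive cells and 396 CPM in untreated cells. Adamts2, which removes procollagen propeptides, had 1.93, 1.82 and 1.78 CPM against 143 CPM in untreated cells (log2 fold change -6.27, SE 0.17, adjusted p = 0.00165). Both stayed below 2 CPM in all 3 AICAR GFP-positive libraries. Loxl2 and Serpinh1 had no call, and replicate 3 lay far above the other AICAR GFP-positive libraries for both. Loxl2, a lysyl oxidase relative, had 1.37, 2.40 and 108 CPM in AICAR GFP-positive cells and 1042 CPM in untreated cells (adjusted p = 0.112). Serpinh1, the collagen chaperone Hsp47, had 39.8, 84.3 and 687 CPM against 1438 CPM in untreated cells (adjusted p = 0.215). All 20 members lay below the untreated library in every AICAR GFP-positive library, as did 44.6% of all genes, and all 20 were called as lower without replicate 3.

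Of the proteoglycans that coat collagen fibrils, 8 of 10 fell (median -9.47). Dcn (decorin) had 0, 0.0727 and 0.833 CPM in AICAR GFP-positive cells against 498 CPM in untreated cells. Bgn (biglycan) had 0.0805, 0.145 and 2.02 CPM in AICAR GFP-positive cells and 622 CPM in untreated cells (log2 fold change -9.96, SE 0.97, adjusted p = 0.00377). One proteoglycan went the other way. Omd (osteomodulin), known from bone, had 85.8, 149.5 and 68.7 CPM in AICAR GFP-positive cells and 13.8 CPM in untreated cells (log2 fold change 2.88, SE 0.56, adjusted p = 0.0158). Every AICAR GFP-positive library lay above the untreated one for Omd, as for 42.1% of all genes tested. Of the elastic fibre genes, 14 of 15 fell (median -6.49). Eln, elastin itself, had 0, 0.291 and 0.238 CPM in AICAR GFP-positive cells and 209.9 CPM in untreated cells (log2 fold change -10.15, SE 0.52, adjusted p = 0.00168). Ltbp4, which tethers latent TGF-beta to fibrils, was the member without a call, at 156, 141 and 151 CPM against 174 CPM in untreated cells.

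Matricellular proteins, which modulate contact between cells and matrix, fell in 9 of 12 cases (median -5.59; 5 fell without replicate 2). Thbs2 had 8.53, 7.42 and 8.09 CPM in AICAR GFP-positive cells and 658 CPM in untreated cells (log2 fold change -6.36, SE 0.15, adjusted p = 0.00165). Fn1, fibronectin, fell by less, at 2045, 2005 and 1926 CPM against 6078 CPM in untreated cells (log2 fold change -1.61, SE 0.16, adjusted p = 0.00373). Spp1 (osteopontin) was above the untreated level in all AICAR GFP-positive libraries, at 278, 308 and 164 CPM against 116 CPM, with no call (adjusted p = 0.0763). Among matrix proteases and their inhibitors, 14 of 17 fell (median -4.44). Mmp2, a gelatinase, had 12.6, 14.03 and 9.28 CPM in AICAR GFP-positive cells and 626 CPM in untreated cells (log2 fold change -5.70, SE 0.24, adjusted p = 0.00165). Timp2, its inhibitor, had 0.161, 0.654 and 4.64 CPM against 224 CPM in untreated cells. Plat, the tissue plasminogen activator, followed replicate 3, at 0.161, 1.16 and 74.6 CPM against 310.3 CPM in untreated cells (adjusted p = 0.219).

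Integrins are the receptors for these ligands. Of 18 tested, 13 fell and 1 rose (median -3.09; 3 rose without replicate 3). Itgb1, the common beta subunit, had 365, 339 and 381 CPM in AICAR GFP-positive cells and 1779 CPM in untreated cells (log2 fold change -2.30, SE 0.15, adjusted p = 0.00224). Itga11, a collagen receptor of fibroblasts, had 0.161, 0.145 and 0.119 CPM against 25.4 CPM in untreated cells. The laminin receptor subunit Itga6 had no call, at 316, 297 and 269.7 CPM in AICAR GFP-positive cells and 212 CPM in untreated cells. Itgb7, best known from lymphocytes, was the one integrin that rose, at 40.1, 79.0 and 34.0 CPM in AICAR GFP-positive cells against 0.622 CPM in untreated cells (log2 fold change 6.33, SE 0.89, adjusted p = 0.00707).

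Basement membranes are thin sheets of laminin, type IV collagen, nidogen and perlecan under epithelia, and embryonic endoderm makes them in large amounts. Of 19 tested genes, 11 fell and 1 rose (median -3.32; 0 rose without replicate 1 or 2). For Col4a1, Lama1, Lamb1 and Lamc1 replicate 3 lay between the other AICAR GFP-positive libraries and the untreated one, and they had no call. Col4a1 had 162, 474 and 4519.6 CPM in AICAR GFP-positive cells and 13978 CPM in untreated cells (log2 fold change -3.02, SE 1.59, adjusted p = 0.172). Without replicate 3, where group and sequencing project coincide, its log2 fold change was -5.49. Lama1, the laminin alpha chain of the early embryo, had 87.3, 322 and 3284 CPM in AICAR GFP-positive cells and 4007 CPM in untreated cells, with a log2 fold change of -1.70 with all libraries and -4.33 without replicate 3. Lamb1 and Lamc1, its partner chains, had the same order of libraries. Lamb1 had 132, 260.3 and 2154 CPM in AICAR GFP-positive cells against 3169 CPM in untreated cells. Lama4, a laminin found around vessels and muscle, did not have this pattern, at 2.25, 2.18 and 5.12 CPM against 401 CPM in untreated cells (log2 fold change -7.02, SE 0.45, adjusted p = 0.00212). Nid2 was the member that rose, at 735, 852 and 857 CPM in AICAR GFP-positive cells and 472 CPM in untreated cells, while its relative Nid1 fell, at 68.3, 94.97 and 184 CPM against 1153 CPM. Without replicate 3, 17 of the basement membrane genes fell.

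**Figure D4:**
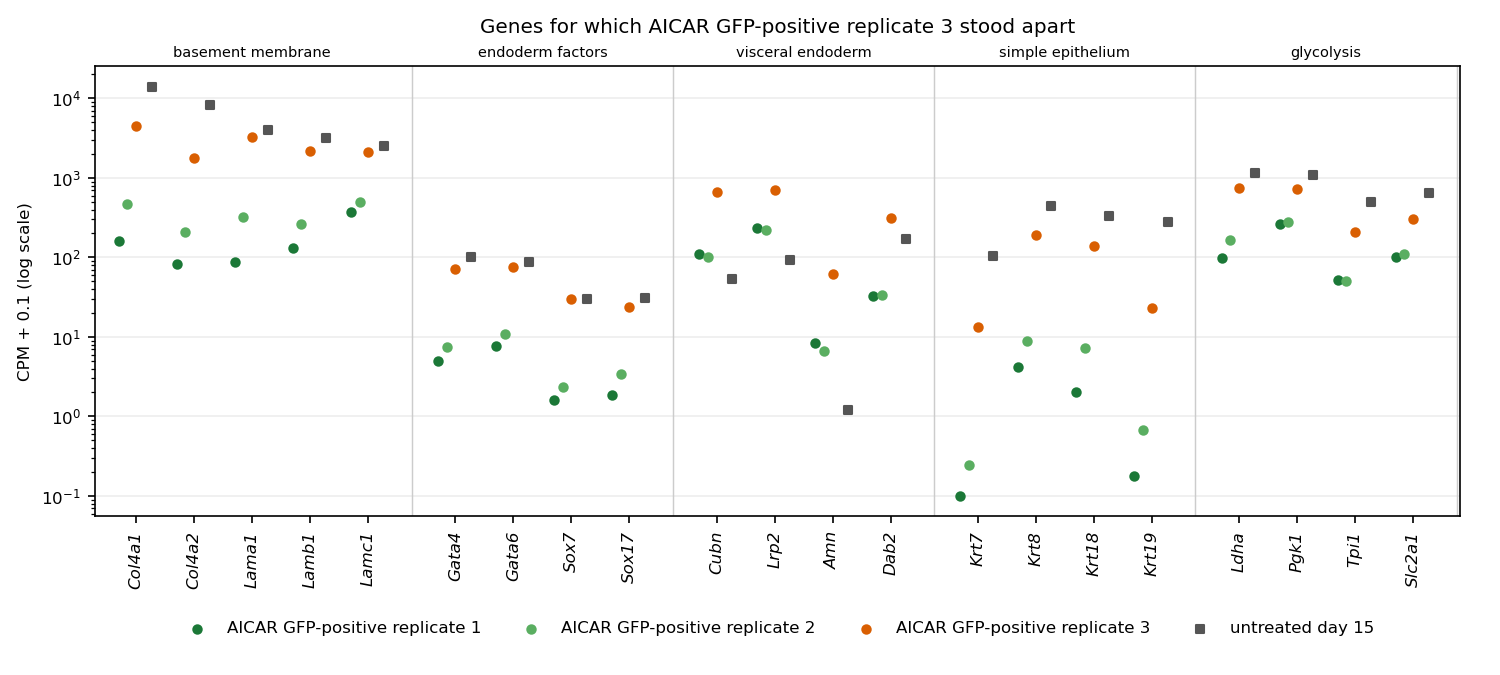
CPM plus 0.1 (vertical log axis) of basement membrane, endoderm, simple epithelial and glycolytic genes by library. The orange circles are AICAR GFP-positive replicate 3, which lies above replicates 1 and 2 (green circles) and nearer to the untreated library (grey squares), or above it for Cubn, Lrp2, Amn and Dab2.

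Several endoderm genes moved with replicate 3, but not all. Of 10 tested endoderm transcription factors, 0 passed the edgeR test and 0 the DESeq2 test at an adjusted p below 0.05, and 1 fell at an unadjusted p below 0.05 (median -1.68). Without replicate 3, 7 fell. Gata4, a zinc finger factor of endoderm and heart, had 4.83, 7.42 and 70.7 CPM in AICAR GFP-positive cells and 102 CPM in untreated cells (log2 fold change -1.91, SE 1.40, adjusted p = 0.304). Without replicate 3 its log2 fold change was -4.08. Sox7, a factor of parietal endoderm and vessels, had 1.53, 2.25 and 29.9 CPM in AICAR GFP-positive cells and 29.6 CPM in untreated cells, so replicate 3 alone reached the untreated level. The summed level of the endoderm factor list was 26.7, 37.5 and 239.7 CPM in AICAR GFP-positive cells and 285 CPM in untreated cells. Of 13 genes of visceral endoderm, the absorptive layer around the epiblast, 1 rose and 3 fell (median -0.45; 1 fell without replicate 1 or 2, 4 rose and 7 fell without replicate 3). Among all genes 23.1% rose and 23.2% fell. The summed level of that list was 813, 719 and 2235 CPM in AICAR GFP-positive cells and 615 CPM in untreated cells. Cubn, the receptor cubilin, had 109, 102 and 669 CPM in AICAR GFP-positive cells and 53.9 CPM in untreated cells (log2 fold change 2.44, SE 1.40, adjusted p = 0.204). Its membrane partner Amn had 8.37, 6.62 and 61.1 CPM against 1.12 CPM in untreated cells (log2 fold change 4.47, SE 1.97, adjusted p = 0.119). Lrp2 (megalin), which works with both, had 231, 220.3 and 711 CPM against 91.7 CPM in untreated cells. All 3 receptor genes lay above the untreated level in every AICAR GFP-positive library, as did 42.1% of all genes tested. They were highest in replicate 3, and none passed the test. In their list of 14, 4 members lay above the untreated library in every AICAR GFP-positive library and 6 below it. Over all 22756 entries, 6746 lay above and 8288 below. Without replicate 3, Lrp2 had a log2 fold change of 1.27. Secreted products of the same tissue were unequal. Afp had 0.161, 0.145 and 3.33 CPM in AICAR GFP-positive cells against 30.4 CPM in untreated cells, and Rbp4 had 0.322, 0.145 and 0.595 CPM against 13.8 CPM, and both fell. Apoa1, an apolipoprotein, had 1.77, 1.96 and 20.7 CPM in AICAR GFP-positive cells and 7.09 CPM in untreated cells, with replicate 3 above the untreated library and no call. Apoe, which many cell types make, was the member that rose, at 418, 344 and 419.5 CPM in AICAR GFP-positive cells and 167 CPM in untreated cells. Gata6 and Sox17 had the same order of libraries as Gata4. Foxa1, without a call, was lowest in replicate 3, at 1.449, 3.345 and 0.476 CPM in AICAR GFP-positive cells against 7.84 CPM in untreated cells. Foxa3 differed little among the AICAR GFP-positive libraries, at 0.161, 0.218 and 0.238 CPM. Trf, which fell, was also lowest in replicate 3, at 6.12, 6.835 and 4.88 CPM against 14.3 CPM in untreated cells. The part of endoderm cells in the replicate 3 values was not tested.

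The contractile lists had 62 of 72 tested genes that fell (median -4.21), and none rose by edgeR, by DESeq2 or at an unadjusted p below 0.05. All 15 smooth muscle genes fell (median -5.35). Acta2, smooth muscle actin, had 11.4, 7.85 and 50.7 CPM in AICAR GFP-positive cells and 1941 CPM in untreated cells (log2 fold change -6.40, SE 1.02, adjusted p = 0.00947). Actg2, the actin of visceral smooth muscle, had 0, 0 and 1.43 CPM against 372 CPM in untreated cells, with reads in replicate 3 alone among AICAR GFP-positive libraries. Myh11, the smooth muscle myosin heavy chain, had 0.644, 0.145 and 1.90 CPM against 158 CPM in untreated cells. Smtn, smoothelin, was the closest between groups, at 77.4, 73.9 and 63.2 CPM in AICAR GFP-positive cells and 144 CPM in untreated cells (log2 fold change -1.01, SE 0.17, adjusted p = 0.011). Every AICAR GFP-positive library lay below the untreated one for Smtn, as for 44.6% of all genes tested. Myocd, the myocardin coactivator that drives smooth muscle genes through serum response factor, had 0.0805, 0.364 and 0.357 CPM in AICAR GFP-positive cells and 7.09 CPM in untreated cells. Srf, the factor itself, fell by much less, at 42.4, 39.5 and 40.7 CPM against 89.6 CPM in untreated cells (log2 fold change -1.13, SE 0.15, adjusted p = 0.00608). Of the actin-responsive coactivators, Mkl1 fell, at 35.2, 29.3 and 32.7 CPM in AICAR GFP-positive cells and 55.1 CPM in untreated cells, and Mkl2 had no call, at 35.8, 34.2 and 32.1 CPM against 34.5 CPM.

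Serum response factor binds the CArG box, a run of A and T bases between CC and GG. RefSeq promoter windows, from 250 bases before to 50 after a gene start, were searched on both strands for it. They held it for 1 of 11 smooth muscle genes with a window, for 2 of 5 genes of the list of this factor and its cofactors, and for 1.81% of all genes with a window. The stretches of 30 bases around these boxes are shown because they are the matches in those lists, and windows of the other contractile lists were not searched. Coordinates are GRCm38.p6, the strand is that of the gene, and capitals mark the box. A match is a description and shows no binding.
Srf, chr17:46556225-46556254, minus strand: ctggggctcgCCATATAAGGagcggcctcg
Srf, chr17:46556205-46556234, minus strand: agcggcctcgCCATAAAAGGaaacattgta
Myl9, chr2:156775293-156775322, plus strand: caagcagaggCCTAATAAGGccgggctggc
Fhl2, chr1:43196838-43196867, minus strand: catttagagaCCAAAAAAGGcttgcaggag
Fhl2, chr1:43163973-43164002, minus strand: gcgcgtgtgtCCTTATATGGtcaaatgact

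The genes with these boxes were lower in AICAR GFP-positive cells by different amounts. Myl9, the regulatory light chain of smooth muscle myosin, had 14.4, 8.65 and 5.71 CPM in AICAR GFP-positive cells and 250.3 CPM in untreated cells (log2 fold change -4.69, SE 0.44, adjusted p = 0.00353). Fhl2, a cofactor of serum response factor, had 0.161, 0.873 and 4.52 CPM against 51.5 CPM in untreated cells (log2 fold change -4.89, SE 1.20, adjusted p = 0.0282). Focal adhesion and stress fibre genes fell in 11 of 15 cases, by less than smooth muscle genes at the median (-1.83 against -5.35). Tln1 (talin), which links integrins to actin, had 213, 208 and 216 CPM in AICAR GFP-positive cells and 705 CPM in untreated cells (log2 fold change -1.73, SE 0.13, adjusted p = 0.00271). Pxn (paxillin) had no call, at 50.2, 47.6 and 51.2 CPM against 56.5 CPM in untreated cells. All 7 genes of caveolae, the small pits of the plasma membrane, fell. Cav1 had 0, 0.145 and 0.476 CPM in AICAR GFP-positive cells and 62.9 CPM in untreated cells (log2 fold change -8.37, SE 0.78, adjusted p = 0.00354). Sdpr, a cavin, had no read in the AICAR GFP-positive libraries and 22.2 CPM in untreated cells, at least 255-fold lower.

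In untreated cells the listed striated muscle genes ranged from no read, as for Myl2, to 142 CPM for Myh3, with Actc1 at 116 CPM. Of 18 cardiac genes tested, 14 fell (median -4.36), and of 11 skeletal muscle genes, 10 fell (median -6.55, or -4.91 with genes unread in 1 group at their 3-read bound; 5 fell without replicate 2). Hand2, a factor of heart and limb mesenchyme, had 0, 0 and 0.357 CPM in AICAR GFP-positive cells against 65.8 CPM in untreated cells. Tnnt2, cardiac troponin T, had 0.0805, 0.364 and 0 CPM in AICAR GFP-positive cells and 25.0 CPM in untreated cells (log2 fold change -7.13, SE 0.86, adjusted p = 0.00523). Myog, the myogenin that commits muscle cells to fuse, had 0, 0 and 0.119 CPM against 18.3 CPM in untreated cells. Myh3, the embryonic myosin of skeletal muscle, had 6.52, 9.38 and 6.07 CPM against 142 CPM in untreated cells (log2 fold change -4.27, SE 0.26, adjusted p = 0.00208). Other heart genes were unequal. Myl2, Nppa and Nkx2-5 had less than 1 CPM in every library. Myh7, a heavy chain of heart and slow muscle, fell, at 1.53, 3.56 and 1.67 CPM in AICAR GFP-positive cells and 28.6 CPM in untreated cells. Ryr2, the calcium channel of the heart, had no call, at 11.6, 18.5 and 15.9 CPM against 19.7 CPM in untreated cells.

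In the epithelial lists, 52 of 83 genes fell and 3 rose (median -3.63; 1 rose without replicate 2). Genes of stratified squamous epithelium fell in 15 of 16 cases (median -7.06). Trp63 (p63), the master regulator of such epithelia, had 0.241, 0.291 and 0.595 CPM in AICAR GFP-positive cells and 21.4 CPM in untreated cells (log2 fold change -5.86, SE 0.52, adjusted p = 0.00327). Krt14, a basal layer keratin, had 0.0805, 0 and 3.09 CPM in AICAR GFP-positive cells and 370.0 CPM in untreated cells. Krt10, a suprabasal keratin, had 1.29, 1.24 and 0.833 CPM against 186 CPM in untreated cells (log2 fold change -7.33, SE 0.23, adjusted p = 0.00165). Both keratins lay far below the untreated level in every AICAR GFP-positive library. Krt6a, in an entry joined with Krt82 and Krt85, had no call, at 0.161, 0.0727 and 33.0 CPM in AICAR GFP-positive cells and 167 CPM in untreated cells. Simple epithelial keratins followed replicate 3. Krt8 had 4.11, 8.87 and 188 CPM in AICAR GFP-positive cells and 440.5 CPM in untreated cells (log2 fold change -2.73, SE 1.84, adjusted p = 0.268). Krt18, its filament partner, had 1.93, 7.13 and 140.5 CPM against 336 CPM in untreated cells. Without replicate 3 the log2 fold change of Krt8 was -6.10, and 17 rather than 6 of 22 epithelial junction genes fell. Without replicate 2, 1 of them fell. Cdh1 and Epcam are junction genes that ES cells share with epithelia. Cdh1 (E-cadherin) had 187, 233 and 343 CPM in AICAR GFP-positive cells and 202 CPM in untreated cells, with no call (log2 fold change 0.33, SE 0.37, adjusted p = 0.485). Epcam, an adhesion protein of epithelia and ES cells, rose, at 95.6, 143 and 125 CPM against 60.5 CPM in untreated cells (log2 fold change 1.00, SE 0.28, adjusted p = 0.0376).

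Of 21 mesenchymal transcription factors, 17 fell (median -4.67). Prrx1, a homeobox factor of limb and skull mesenchyme, had 0, 0.0727 and 0.357 CPM in AICAR GFP-positive cells and 115 CPM in untreated cells (log2 fold change -9.79, SE 0.65, adjusted p = 0.00227). Twist2, a mesenchymal helix-loop-helix factor, had no read in AICAR GFP-positive cells and 19.2 CPM in untreated cells, at least 221-fold lower. The repressors of E-cadherin were unequal. Snai2 (Slug) had 1.29, 1.38 and 0.952 CPM in AICAR GFP-positive cells and 26.9 CPM in untreated cells (log2 fold change -4.45, SE 0.35, adjusted p = 0.00285). Zeb2, in a joint entry with Gm13476 and Mir5129, had 4.35, 1.67 and 4.52 CPM against 137 CPM in untreated cells. Zeb1 had no call, at 56.6, 46.8 and 30.1 CPM against 81.9 CPM in untreated cells (adjusted p = 0.0953), and neither did Snai1, at 1.05, 4.51 and 24.8 CPM against 40.2 CPM. Of mesenchymal surface and cytoskeletal genes, 11 of 13 fell (median -4.06). Cdh11, a mesenchymal cadherin, had 0.966, 2.04 and 4.402 CPM in AICAR GFP-positive cells and 790.0 CPM in untreated cells (log2 fold change -8.39, SE 0.63, adjusted p = 0.00263). Vim (vimentin) remained readable, at 189, 164 and 226 CPM against 1724 CPM in untreated cells (log2 fold change -3.16, SE 0.21, adjusted p = 0.00225). Pdgfra, a receptor of mesenchyme and of primitive endoderm, had 10.3, 19.3 and 121 CPM in AICAR GFP-positive cells and 188 CPM in untreated cells, with no call. Of 11 stem cell surface genes, 2 rose and 3 fell (median -0.54; 1 rose without replicate 2, 7 fell without replicate 3), against 23.1% and 23.2% of all genes. Fut9, whose enzyme makes the SSEA1 antigen, rose, at 2.98, 4.14 and 6.42 CPM in AICAR GFP-positive cells and 0.373 CPM in untreated cells (adjusted p = 0.0273). Alpl, the alkaline phosphatase used to stain ES cell colonies and also a bone gene, had 76.0, 78.5 and 75.8 CPM against 8.59 CPM in untreated cells (log2 fold change 3.16, SE 0.19, adjusted p = 0.00202).

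Hox genes give cells their position along the body axis and are silent in ES cells. Of 33 tested Hox genes, 21 fell (median -4.42; 11 fell without replicate 1, 9 fell without replicate 2), and none rose by edgeR, by DESeq2 or at an unadjusted p below 0.05. By DESeq2 14 fell. Of 39 Hox genes with an entry, 36 lay below the untreated library in every AICAR GFP-positive library, as did 8288 of all 22756 entries. All were low in untreated cells too. Hoxb3, an anterior member, had 0.0805, 0.0727 and 0 CPM in AICAR GFP-positive cells against 15.6 CPM in untreated cells. Hoxd4 had no read in AICAR GFP-positive cells and 5.10 CPM in untreated cells, at least 58.8-fold lower. Posterior Hoxa members were less clear. Hoxa10 had 1.29, 5.09 and 0.238 CPM in AICAR GFP-positive cells and 5.97 CPM in untreated cells (adjusted p = 0.415), and replicate 2 was close to the untreated library. Hoxa11, in an entry joined with its antisense RNA, had 3.54, 8.44 and 0.357 CPM against 8.71 CPM in untreated cells (adjusted p = 0.528). Hoxa5, from the middle of the cluster, fell, at 0.241, 0.654 and 0.595 CPM in AICAR GFP-positive cells and 7.22 CPM in untreated cells (log2 fold change -3.84, SE 0.65, adjusted p = 0.0111).

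Lists for other cell types gave 10 of 82 tested genes that rose and 29 that fell (median -1.93; 5 rose and 16 fell without replicate 2, 49 fell without replicate 3). In the neural list, 4 of 12 rose and 6 fell (median -1.02; 1 rose without replicate 2). Stmn2, a tubulin-binding protein of neurons, had 253, 186 and 163 CPM in AICAR GFP-positive cells and 22.9 CPM in untreated cells (log2 fold change 3.13, SE 0.35, adjusted p = 0.00457). Sox1, a factor of neural progenitors, had 15.7, 10.7 and 9.64 CPM against 1.99 CPM in untreated cells (log2 fold change 2.59, SE 0.51, adjusted p = 0.0157). Neural genes on the other side were Nes (nestin), at 14.3, 35.7 and 38.4 CPM in AICAR GFP-positive cells against 309 CPM in untreated cells, and Fabp7, at 0.0805, 0.0727 and 0.238 CPM against 21.9 CPM. Pax6, which defines neural progenitors, was at 1.13, 0.509 and 2.38 CPM in AICAR GFP-positive cells and 1.74 CPM in untreated cells, without a call. The summed level of the neural list was 420.2, 384 and 327 CPM in AICAR GFP-positive cells and 458 CPM in untreated cells. These sums rest on different genes, as Stmn2 was the largest member in each AICAR GFP-positive library and Nes in the untreated one. The part of neural cells in these values was not tested. Neural crest genes had 4 of 8 members lower, among them Tfap2b, with no read in AICAR GFP-positive cells and 14.4 CPM in untreated cells, at least 166-fold lower.

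Of 13 endothelial genes, 2 rose and 4 fell (median -1.85; 1 rose and 2 fell without replicate 1, 1 rose and 1 fell without replicate 2). Pecam1, an adhesion molecule of endothelium that ES cells also carry, had 86.2, 110.4 and 77.8 CPM in AICAR GFP-positive cells and 6.85 CPM in untreated cells (log2 fold change 3.74, SE 0.32, adjusted p = 0.00314). Kdr, the main VEGF receptor of endothelium, went the other way, at 2.82, 7.42 and 4.16 CPM against 45.2 CPM in untreated cells (log2 fold change -3.22, SE 0.51, adjusted p = 0.00929). Cartilage and bone factors fell in 6 of 9 cases (median -3.14; 3 fell without replicate 2). Sox9, the cartilage regulator, had 0, 0.509 and 1.31 CPM in AICAR GFP-positive cells and 27.9 CPM in untreated cells (log2 fold change -5.61, SE 1.14, adjusted p = 0.0172). Of 5 blood genes tested, 1 rose and 1 fell (median -3.14; 0 rose without replicate 2, 3 fell without replicate 3). The defining Ptprc and Gata1 had less than 1 CPM in every library. Lyz2, a lysozyme of macrophages, had no read in AICAR GFP-positive cells and 12.4 CPM in untreated cells, at least 144-fold lower, while the lysosomal protein Cd68 rose, at 16.3, 23.3 and 28.3 CPM in AICAR GFP-positive cells and 8.34 CPM in untreated cells. Runx1, a factor of blood and of cartilage, had no call, at 1.61, 1.67 and 18.3 CPM against 61.5 CPM in untreated cells. In the adipocyte list 4 of 5 tested genes fell (median -3.95; 2 fell without replicate 2), and Adipoq, its defining hormone, stayed below 1 CPM in every library. Of trophoblast genes, 1 of 7 rose: Eomes, which also acts in the epiblast and the primitive streak, had 18.2, 28.1 and 25.0 CPM in AICAR GFP-positive cells and 4.61 CPM in untreated cells (log2 fold change 2.36, SE 0.40, adjusted p = 0.0107). Tpbpa, a gene of the placental spongiotrophoblast, fell, with no read in AICAR GFP-positive cells and 8.46 CPM in untreated cells, at least 97.5-fold lower. Cdx2, which defines trophoblast, stayed below 1 CPM in all 4 libraries, and Gata3, also a gene of other tissues, had 0, 0.0727 and 2.50 CPM in AICAR GFP-positive cells and 16.1 CPM in untreated cells, with no call. Without replicate 3, 3 of the trophoblast genes fell.

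Signalling genes showed both directions, 15 of 137 higher and 76 lower (median -1.86; 8 rose and 47 fell without replicate 2). In the FGF-ERK list 6 of 23 rose and 9 fell (median -0.81; 4 fell without replicate 2). The ligand Fgf4, which ES cells secrete under Oct4 and Sox2, had 40.8, 42.0 and 42.8 CPM in AICAR GFP-positive cells and 0.747 CPM in untreated cells (log2 fold change 5.79, SE 0.30, adjusted p = 0.00172). The ETS factors Etv4 and Etv5, targets of FGF signalling, both rose. Etv5 had 411, 366 and 321 CPM in AICAR GFP-positive cells and 21.9 CPM in untreated cells (log2 fold change 4.06, SE 0.25, adjusted p = 0.00208). Spry4, a feedback inhibitor, had 98.2, 85.7 and 45.6 CPM against 6.97 CPM in untreated cells, with replicate 3 the lowest of its group. Immediate early targets of the same kinase moved the other way: Fos had 58.3, 19.3 and 97.1 CPM in AICAR GFP-positive cells and 381 CPM in untreated cells, and Ier3 had 2.58, 2.33 and 6.42 CPM against 56.0 CPM. The receptors Fgfr2 and Fgfr3 fell, and Fgfr1 had no call, at 199.8, 152 and 119 CPM in AICAR GFP-positive cells and 275 CPM in untreated cells.

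In the LIF-STAT3 list, which carries the signal that keeps mouse ES cells naive, 2 of 12 rose and 5 fell (median -1.23; 1 rose without replicate 1, 0 rose without replicate 2, 8 fell without replicate 3). The receptor Lifr had 162, 154 and 191 CPM in AICAR GFP-positive cells and 93.2 CPM in untreated cells (log2 fold change 0.85, SE 0.20, adjusted p = 0.0232). The shared receptor subunit Il6st (gp130) had 97.1, 88.7 and 109 CPM against 238 CPM in untreated cells, and Stat3 had 41.5, 35.5 and 59.2 CPM against 190.2 CPM. Both were lower in every AICAR GFP-positive library, as were 44.6% of all genes tested. Osmr, the receptor for the related oncostatin M, had 0.0805, 0.145 and 1.19 CPM against 60.5 CPM in untreated cells (log2 fold change -7.19, SE 0.94, adjusted p = 0.00614).

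Wnt genes fell in 14 of 23 cases and rose in 2 (median -3.34). The ligand Wnt5a had 0, 1.24 and 1.07 CPM in AICAR GFP-positive cells and 60.9 CPM in untreated cells (log2 fold change -6.31, SE 1.01, adjusted p = 0.00962). The receptor Fzd1 had 1.85, 2.11 and 3.57 CPM against 124 CPM in untreated cells, and the inhibitor Dkk2 had 0, 0 and 0.119 CPM against 41.0 CPM. The members that rose were Tcf7, the ES cell partner of beta-catenin, and Notum, an enzyme that inactivates Wnt. Tcf7 had 34.7, 32.1 and 37.6 CPM in AICAR GFP-positive cells and 5.48 CPM in untreated cells, and Notum had 83.4, 91.7 and 59.6 CPM against 10.7 CPM in untreated cells (log2 fold change 2.87, SE 0.34, adjusted p = 0.00522). Axin2, a general target of the pathway, had no call, at 29.5, 46.6 and 29.03 CPM in AICAR GFP-positive cells and 70.2 CPM in untreated cells (adjusted p = 0.0537).

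Of 16 TGF-beta and activin genes, 11 fell and 2 rose (median -2.13; 1 rose without replicate 1, 1 rose and 5 fell without replicate 2). The ligand Tgfb3 had 0.241, 0.218 and 0.952 CPM in AICAR GFP-positive cells and 113 CPM in untreated cells, and Inhba, the activin subunit, had 0.161, 0 and 0.357 CPM against 93.0 CPM. The receptor Tgfbr2 had 0.725, 1.45 and 14.9 CPM against 167 CPM in untreated cells, while Acvr2b, a receptor for Nodal and activin, rose, at 39.9, 39.7 and 34.1 CPM against 12.3 CPM in untreated cells (log2 fold change 1.62, SE 0.23, adjusted p = 0.00749). The BMP list had 9 of 18 lower (median -2.20; 5 fell without replicate 2, 14 fell without replicate 3). Bmp4 had no call, at 53.1, 57.6 and 42.4 CPM in AICAR GFP-positive cells and 58.8 CPM in untreated cells, whereas Id3, a BMP target that blocks differentiation factors, had 9.50, 11.8 and 8.80 CPM against 63.7 CPM in untreated cells (log2 fold change -2.66, SE 0.24, adjusted p = 0.00334). Notch genes fell in 9 of 12 cases (median -1.998; 5 fell without replicate 2), the ligand Jag1 by the most among ligands, at 14.7, 17.7 and 21.9 CPM in AICAR GFP-positive cells and 120.5 CPM in untreated cells (log2 fold change -2.74, SE 0.24, adjusted p = 0.00319). Of 9 Hedgehog genes, 2 rose and 5 fell (median -1.09; 1 rose without replicate 2, 4 rose without replicate 3), against 23.1% and 23.2% of all genes. Gli2, a transcription factor of the pathway, had 144, 128 and 93.4 CPM in AICAR GFP-positive cells and 37.0 CPM in untreated cells (log2 fold change 1.72, SE 0.31, adjusted p = 0.0124), while the coreceptor Boc had 2.66, 5.60 and 4.997 CPM against 122 CPM. In the IGF list 6 of 10 fell (median -5.19), and Igfbp5, an IGF-binding protein, had 0, 0 and 4.64 CPM in AICAR GFP-positive cells and 369.5 CPM in untreated cells.

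The Hippo pathway restrains the coactivators Yap1 and Wwtr1 (TAZ), which act through TEAD factors. Of 14 genes in its list, 8 fell and 1 rose (median -1.24; 0 rose without replicate 1, 0 rose and 4 fell without replicate 2). RefSeq promoter windows of 10 of these genes were searched on both strands for the TEAD element GGAATG, and 8 held it, against 16.6% of all genes with a window. Among all genes that rose, 12.9% of those with a window held it, and among all genes that fell 17.5%. It was also in 6 of 11 smooth muscle genes with a window. Counted on the sense strand alone, the element was in 50% of the Hippo genes, 36.4% of the smooth muscle genes and 8.74% of all genes with a window. One stretch for each gene with the element is shown, since pathway members that fell, rose and had no call are among them. Capitals mark the element or its reverse complement.
Cyr61 (fell), chr3:145650071-145650100, minus strand: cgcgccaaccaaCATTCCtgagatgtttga
Ankrd1 (fell), chr19:36119950-36119979, minus strand: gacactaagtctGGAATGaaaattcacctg
Amotl2 (fell), chr9:102717727-102717756, plus strand: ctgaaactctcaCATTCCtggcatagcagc
Lats2 (fell), chr14:57746102-57746131, minus strand: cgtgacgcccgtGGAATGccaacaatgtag
Wwtr1 (fell), chr3:57576029-57576058, minus strand: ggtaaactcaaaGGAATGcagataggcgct
Tead3 (fell), chr17:28350970-28350999, minus strand: gacgacgagcgaGGAATGgggtgcgcggga
Ajuba (rose), chr14:54577808-54577837, minus strand: tgcccctccgcgCATTCCaactgtaaacaa
Yap1 (no call), chr9:8004720-8004749, minus strand: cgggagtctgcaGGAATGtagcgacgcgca

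Cyr61, a matricellular target of the pathway, had 41.5, 22.5 and 52.0 CPM in AICAR GFP-positive cells and 695 CPM in untreated cells (log2 fold change -4.17, SE 0.42, adjusted p = 0.00389). Ankrd1, a further target, had 0, 0.0727 and 1.19 CPM against 44.6 CPM in untreated cells (log2 fold change -6.96, SE 1.22, adjusted p = 0.0118), and Ctgf, whose promoter was not matched, had 26.0, 21.5 and 56.5 CPM against 387 CPM. The coactivators themselves moved less. Yap1 had 122, 106 and 114 CPM in AICAR GFP-positive cells and 124 CPM in untreated cells (log2 fold change -0.12, SE 0.16, adjusted p = 0.547), and Wwtr1 had 31.1, 22.1 and 33.5 CPM against 67.3 CPM in untreated cells (log2 fold change -1.22, SE 0.27, adjusted p = 0.0208). Lats2, the kinase that inhibits both, had 10.6, 12.7 and 10.8 CPM in AICAR GFP-positive cells and 102 CPM in untreated cells (log2 fold change -3.16, SE 0.19, adjusted p = 0.00202). Amot, a scaffold that holds Yap1 at junctions, followed replicate 3, at 10.6, 13.3 and 89.7 CPM against 89.6 CPM in untreated cells.

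AMPK is a trimer of a catalytic alpha, a scaffolding beta and a nucleotide-binding gamma subunit. Of 13 tested genes for its subunits and upstream kinases, 1 rose and 1 fell (median -0.02; 0 rose and 0 fell without replicate 1 or 2, 3 fell without replicate 3). Per length, the alpha subunit Prkaa1 stood at 28.6, 30.5 and 27.8 RPKM in AICAR GFP-positive cells and 27.6 RPKM in untreated cells. The alternative alpha subunit Prkaa2 stood at 3.81, 4.46 and 12.2 RPKM against 10.3 RPKM in untreated cells, so Prkaa1 was the higher alpha in every library. The beta subunit Prkab1 had 21.6, 21.1 and 37.0 RPKM in AICAR GFP-positive cells and 23.2 RPKM in untreated cells. Its alternative Prkab2 was the member that fell, with 4.67, 4.65 and 4.402 CPM in AICAR GFP-positive cells and 13.9 CPM in untreated cells (log2 fold change -1.60, SE 0.33, adjusted p = 0.0175). Of the gamma subunits, Prkag1 had 34.4, 41.3 and 43.0 RPKM in AICAR GFP-positive cells and 42.8 RPKM in untreated cells. The upstream kinase Stk11 (LKB1) had 92.2, 104 and 107 CPM against 80.7 CPM in untreated cells (log2 fold change 0.33, SE 0.17, adjusted p = 0.167).

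Genes that AMPK acts on, or that act in the same responses, rose in 8 of 18 cases and fell in 4 (median 0.71; 5 rose without replicate 1, 5 rose and 2 fell without replicate 2). Sirt1, an NAD-dependent deacetylase, had 244, 252 and 173 CPM in AICAR GFP-positive cells and 28.5 CPM in untreated cells (log2 fold change 2.97, SE 0.32, adjusted p = 0.00429). Ulk1, which starts autophagy when AMPK phosphorylates it, had 126, 118 and 137 CPM against 58.0 CPM in untreated cells (log2 fold change 1.13, SE 0.17, adjusted p = 0.00889). Txnip, a brake on glucose uptake in an entry joined with Gm15441, had 375, 286 and 207 CPM against 22.6 CPM in untreated cells (log2 fold change 3.67, SE 0.44, adjusted p = 0.00531). Every AICAR GFP-positive library lay above the untreated one for these genes, as for 42.1% of all genes tested. Ppargc1a, the coactivator of mitochondrial biogenesis, was nearly unread, at 0, 0.218 and 0.119 CPM in AICAR GFP-positive cells against 4.73 CPM in untreated cells. Acaca, the lipid synthesis enzyme that AMPK inhibits, had no call, at 204, 159.8 and 177 CPM against 154 CPM in untreated cells (log2 fold change 0.22, SE 0.19, adjusted p = 0.379). Measurements of RNA say nothing of the phosphorylation by which AMPK acts.

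AICAR enters cells through nucleoside transporters, is phosphorylated by adenosine kinase and is used up by Atic. Of 13 tested genes, 5 rose and 1 fell (median 0.62; 3 rose and 0 fell without replicate 2, 3 fell without replicate 3). Slc29a1, the equilibrative transporter ENT1, had 288, 298 and 218 CPM in AICAR GFP-positive cells and 37.5 CPM in untreated cells (log2 fold change 2.84, SE 0.28, adjusted p = 0.00375). By RPKM it was the most abundant of the transporters in all 4 libraries, at 25.2 RPKM in untreated cells, where Slc29a2 stood at 4.29 RPKM. Slc28a1, a concentrative transporter, had 10.6, 9.53 and 11.1 CPM in AICAR GFP-positive cells and 0.871 CPM in untreated cells (log2 fold change 3.56, SE 0.45, adjusted p = 0.00589). Adk, the adenosine kinase, had no call, at 59.7, 52.6 and 55.3 CPM in AICAR GFP-positive cells and 57.0 CPM in untreated cells (log2 fold change -0.03, SE 0.16, adjusted p = 0.899). Atic, the bifunctional enzyme that converts ZMP onward to inosine monophosphate, rose, at 246, 241 and 229 CPM against 97.3 CPM in untreated cells (log2 fold change 1.29, SE 0.16, adjusted p = 0.0054).

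In the purine synthesis list, 10 of 13 genes rose (median 1.25), counting the joint entry of Paics and Ppat under both names. Pfas, the fourth enzyme of the route, in an entry joined with Mir3062, had 230.4, 221 and 195 CPM in AICAR GFP-positive cells and 55.5 CPM in untreated cells (log2 fold change 1.96, SE 0.19, adjusted p = 0.00376). Gart, which carries 3 steps of the route, had 428, 466 and 403 CPM against 116 CPM in untreated cells. Adsl, which makes ZMP inside the pathway, had 108, 108 and 98.8 CPM against 46.0 CPM in untreated cells. For the branch to guanine nucleotides, Impdh2 rose, at 663, 636 and 529 CPM in AICAR GFP-positive cells and 214 CPM in untreated cells, while its isoenzyme Impdh1 had no call, at 46.7, 54.6 and 61.8 CPM against 61.9 CPM.

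Mouse ES cells feed purine synthesis from threonine, through threonine dehydrogenase and the glycine cleavage system. In the threonine, serine and one-carbon list 12 of 17 genes rose (median 1.33). Tdh, the dehydrogenase, had 983, 762.3 and 562 CPM in AICAR GFP-positive cells and 6.47 CPM in untreated cells (log2 fold change 6.89, SE 0.52, adjusted p = 0.00263). It was the largest change of the metabolic lists, and replicate 3 was the lowest AICAR GFP-positive library. Gldc, the decarboxylase of glycine cleavage, had 168, 228 and 337 CPM against 37.3 CPM in untreated cells, and its partner Amt had 57.8, 72.0 and 52.4 CPM against 10.8 CPM. Mthfd1, the cytosolic folate enzyme, had 506, 490.5 and 376 CPM in AICAR GFP-positive cells and 84.5 CPM in untreated cells (log2 fold change 2.44, SE 0.26, adjusted p = 0.00429). The serine synthesis genes had no call: Phgdh had 32.0, 61.1 and 60.8 CPM in AICAR GFP-positive cells and 89.99 CPM in untreated cells, and Psat1 had 46.5, 69.5 and 67.0 CPM against 54.9 CPM.

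**Figure D5:**
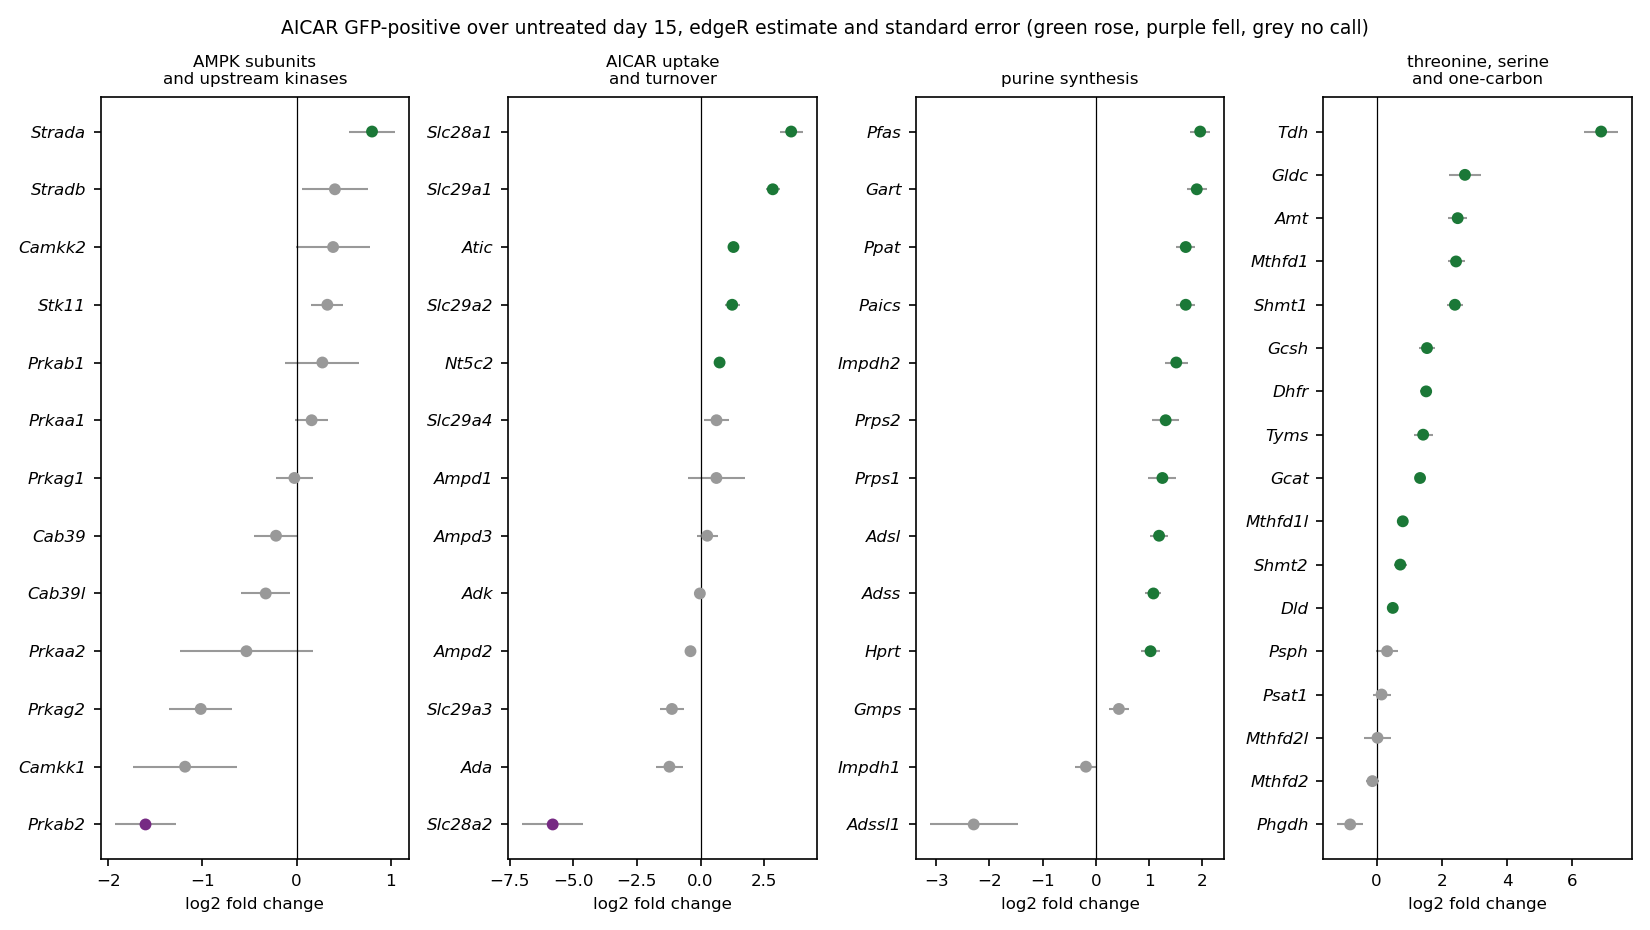
Log2 fold change of AICAR GFP-positive over untreated day-15 cells (horizontal axes) with its standard error (bars) for members of 4 metabolic lists, coloured by call. Members of the AMPK list lie around 0, while most of the purine and one-carbon members lie above it, Tdh farthest at 6.89.

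Glycolytic genes had 4 of 18 higher and 2 lower (median -0.52; 1 fell without replicate 1, 2 rose and 1 fell without replicate 2), against 23.1% and 23.2% of all genes. Several of the rest followed replicate 3. Ldha, the lactate dehydrogenase of glycolytic cells, had 98.4, 167 and 737 CPM in AICAR GFP-positive cells and 1141 CPM in untreated cells (log2 fold change -1.77, SE 1.05, adjusted p = 0.217). Without replicate 3 its log2 fold change was -3.13, and 10 genes of the list fell. Ldhb, its counterpart, rose, at 416, 279 and 363 CPM in AICAR GFP-positive cells and 75.3 CPM in untreated cells (log2 fold change 2.23, SE 0.30, adjusted p = 0.00639). Pfkp, a phosphofructokinase, rose as well, at 266, 356 and 406 CPM against 120.0 CPM in untreated cells. Hypoxia response genes fell in 9 of 14 cases (median -3.25; 5 fell without replicate 2). Vegfa, the vessel growth factor, had 8.62, 14.5 and 31.5 CPM in AICAR GFP-positive cells and 278 CPM in untreated cells (log2 fold change -3.94, SE 0.62, adjusted p = 0.00932). Hif1a, the factor behind the response, is regulated mainly as a protein, and its RNA had no call, at 238, 225 and 200.5 CPM against 271 CPM in untreated cells.

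Oxidative phosphorylation genes rose in 24 of 34 cases and fell in 1, with a median log2 fold change of 0.77. The changes were small, and 12 rose without replicate 1, 4 without replicate 2 and 30 without replicate 3. Cox5a, a subunit of cytochrome oxidase, had 267, 245 and 228 CPM in AICAR GFP-positive cells and 75.5 CPM in untreated cells (log2 fold change 1.71, SE 0.18, adjusted p = 0.00426). Atp5b, the catalytic subunit of ATP synthase, had 2533, 2573 and 2217 CPM against 1019 CPM in untreated cells (log2 fold change 1.26, SE 0.20, adjusted p = 0.00928). The hypoxia-linked isoform Cox4i2 was the member that fell, at 0, 0.145 and 0.833 CPM in AICAR GFP-positive cells and 8.21 CPM in untreated cells. Sterol synthesis gave 1 call upward and 1 downward among 20 genes (median -0.03; 0 fell without replicate 1, 0 rose and 0 fell without replicate 2, 4 fell without replicate 3). Its regulator Srebf2 had 286, 262 and 305 CPM in AICAR GFP-positive cells and 282 CPM in untreated cells (log2 fold change 0.01, SE 0.16, adjusted p = 0.962). In fatty acid metabolism 4 of 17 rose and 2 fell (median 0.18; 1 fell without replicate 1, 1 rose without replicate 2), against 23.1% and 23.2% of all genes. Fasn, the fatty acid synthase, had 1002, 949.6 and 851 CPM in AICAR GFP-positive cells and 437 CPM in untreated cells (log2 fold change 1.10, SE 0.19, adjusted p = 0.0113).

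Lysosomal genes fell in 7 of 16 cases (median -0.80; 4 fell without replicate 2, 13 fell without replicate 3), and genes of the secretory pathway and its stress response in 12 of 17 (median -1.11; 6 fell without replicate 1, 3 fell without replicate 2). Lamp2, a lysosomal membrane protein, had 40.4, 35.3 and 60.7 CPM in AICAR GFP-positive cells and 216 CPM in untreated cells (log2 fold change -2.25, SE 0.30, adjusted p = 0.00663). Hspa5 (BiP), the main chaperone of the endoplasmic reticulum, had 579, 613 and 788 CPM against 1427 CPM in untreated cells (log2 fold change -1.11, SE 0.22, adjusted p = 0.0163). Creb3l1, a factor that drives collagen secretion in bone, had 11.9, 14.5 and 17.4 CPM against 131 CPM in untreated cells. Of antioxidant genes, 7 of 13 rose and 3 fell (median 1.29; 1 fell without replicate 2). Mt2, a metallothionein, had 502, 484 and 384 CPM in AICAR GFP-positive cells and 80.2 CPM in untreated cells (log2 fold change 2.51, SE 0.25, adjusted p = 0.0038), and Gclm, a subunit of the glutathione synthesis enzyme, had 77.2, 83.6 and 69.6 CPM against 19.3 CPM. Slc7a11, the cystine transporter that feeds glutathione synthesis, fell, at 0.161, 0.145 and 0 CPM in AICAR GFP-positive cells and 5.35 CPM in untreated cells.

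In the lists for chromatin and the cell cycle, 107 of 191 genes rose and 29 fell (median 0.92; 15 fell without replicate 2). Of 10 DNA methylation genes, 8 rose and 1 fell (median 1.59; 5 rose without replicate 1, 4 rose without replicate 2). Tet1, the main enzyme of 5-methylcytosine oxidation in ES cells, had 979, 913 and 647 CPM in AICAR GFP-positive cells and 32.0 CPM in untreated cells (log2 fold change 4.72, SE 0.38, adjusted p = 0.00285). Tet3, its counterpart in other cells, fell, at 27.5, 16.9 and 16.7 CPM against 75.2 CPM in untreated cells (log2 fold change -1.88, SE 0.33, adjusted p = 0.0117). Dnmt3l, a cofactor of the de novo methyltransferases, had 37.6, 105 and 125 CPM in AICAR GFP-positive cells and 2.61 CPM in untreated cells, with replicate 1 the lowest of its group (log2 fold change 5.08, SE 0.98, adjusted p = 0.015).

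Polycomb genes rose in 10 of 19 cases and fell in 4 (median 0.92; 6 rose and 2 fell without replicate 2), and paralogs went opposite ways. Cbx7, the chromobox protein of ES cells, had 42.4, 36.7 and 32.7 CPM in AICAR GFP-positive cells and 2.24 CPM in untreated cells (log2 fold change 4.05, SE 0.33, adjusted p = 0.00293). Cbx8, a chromobox protein of differentiated cells, fell, at 0.644, 0.873 and 1.55 CPM in AICAR GFP-positive cells and 9.21 CPM in untreated cells. Phc1 had 1163, 1046 and 926 CPM in AICAR GFP-positive cells and 86.9 CPM in untreated cells (log2 fold change 3.59, SE 0.25, adjusted p = 0.00238), while Phc2 had 22.1, 15.9 and 24.3 CPM against 73.1 CPM in untreated cells (log2 fold change -1.82, SE 0.27, adjusted p = 0.00796). Jarid2, which guides the methyltransferase complex, had 930.4, 1148 and 787 CPM against 103 CPM in untreated cells. Of 16 genes of the BAF remodelling complex, 4 rose and 6 fell (median 0.17; 2 rose and 0 fell without replicate 2), against 23.1% and 23.2% of all genes. Smarcd1 had 282, 235 and 209 CPM in AICAR GFP-positive cells and 36.5 CPM in untreated cells, and its paralog Smarcd3, found in heart muscle, had 10.2, 6.98 and 7.97 CPM against 22.3 CPM. Genes that silence retroelements rose in 8 of 14 cases (median 1.00). Trim28 (KAP1), the corepressor of zinc finger proteins, had 2115, 2438 and 1822 CPM in AICAR GFP-positive cells and 459.7 CPM in untreated cells (log2 fold change 2.21, SE 0.26, adjusted p = 0.00492). In the nuclear lamina list, 4 of 10 rose and 4 fell (median -0.49; 2 rose without replicate 1, 2 rose and 2 fell without replicate 2). Lbr and Lmnb1 rose and Lmna, typical of stiff differentiated tissue, fell, at 13.8, 24.7 and 73.6 CPM in AICAR GFP-positive cells against 333 CPM in untreated cells.

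Genes of replication and mitosis rose almost throughout. Of 18 replication genes 17 rose (median 1.87), and of 20 genes of G2 and mitosis 19 rose (median 1.30; 12 rose without replicate 2). Mcm3, a subunit of the replicative helicase, had 635, 618 and 556 CPM in AICAR GFP-positive cells and 110.4 CPM in untreated cells (log2 fold change 2.45, SE 0.19, adjusted p = 0.00282). Bub1b, a checkpoint kinase of mitosis, had 506, 448 and 368 CPM against 104 CPM in untreated cells (log2 fold change 2.08, SE 0.26, adjusted p = 0.00541). Mki67, a general proliferation marker, differed by less, at 1031, 934 and 776 CPM in AICAR GFP-positive cells and 517 CPM in untreated cells (log2 fold change 0.82, SE 0.23, adjusted p = 0.0379). G1 cyclins and CDK inhibitors had 3 of 19 members higher and 7 lower (median -0.67). Ccne1, high through the ES cell cycle, had 108, 111 and 97.2 CPM in AICAR GFP-positive cells and 26.0 CPM in untreated cells (log2 fold change 2.02, SE 0.19, adjusted p = 0.0034), whereas Ccnd2 fell (log2 fold change -2.89, SE 0.40, adjusted p = 0.00699), with 30.6, 30.4 and 14.5 CPM in AICAR GFP-positive cells and 188 CPM in untreated cells. The CDK inhibitors Cdkn1a, Cdkn1c, Cdkn2a and Cdkn2b fell, Cdkn2a (the Ink4a-Arf gene) to 0.403, 1.38 and 1.78 CPM in AICAR GFP-positive cells, against 67.0 CPM in untreated cells (log2 fold change -5.84, SE 0.60, adjusted p = 0.00405). The p53 targets had 5 of 15 higher and 3 lower (median 0.03; 3 rose and 1 fell without replicate 2). Trp53 itself rose, at 380.1, 385 and 314 CPM in AICAR GFP-positive cells and 97.7 CPM in untreated cells.

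All 20 genes of ribosome biogenesis rose (median 1.68). Dkc1, the enzyme that makes pseudouridine in ribosomal RNA and also a telomerase part, had 243, 258 and 251 CPM in AICAR GFP-positive cells and 44.1 CPM in untreated cells (log2 fold change 2.51, SE 0.17, adjusted p = 0.00237). Ncl, nucleolin, had 2535, 2867 and 3049 CPM against 1032 CPM in untreated cells (log2 fold change 1.45, SE 0.21, adjusted p = 0.00753). Of telomere genes 4 of 8 rose (median 0.84; 2 rose without replicate 1 or 2). Tert, the catalytic subunit of telomerase, was above the untreated level in every AICAR GFP-positive library without a call, at 25.3, 24.2 and 15.7 CPM in AICAR GFP-positive cells and 9.83 CPM in untreated cells (adjusted p = 0.064). Of 14 splicing regulators, 3 rose and 3 fell (median -0.35; 1 rose without replicate 2, 6 fell without replicate 3), against 23.1% and 23.2% of all genes. Mbnl1 and Mbnl2, which set splice patterns of differentiated cells, fell. Mbnl2 had 13.8, 12.7 and 23.7 CPM in AICAR GFP-positive cells and 134 CPM in untreated cells (log2 fold change -3.02, SE 0.35, adjusted p = 0.00507).

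Imprinted genes are read from 1 parental copy, and many act on fetal growth. In the imprinted lists, 5 of 6 genes of the Dlk1-Dio3 cluster fell (median -1.94; 3 fell without replicate 1, 2 fell without replicate 2). Of 22 others, 15 fell and 2 rose (median -3.02; 0 rose without replicate 2). H19, in an entry joined with Mir675, had 81.1, 54.0 and 865 CPM in AICAR GFP-positive cells and 13974 CPM in untreated cells (log2 fold change -5.39, SE 1.51, adjusted p = 0.0395). Its neighbour Igf2, in an entry joined with its antisense RNA, had 1.21, 2.69 and 41.9 CPM against 1085 CPM in untreated cells (log2 fold change -6.20, SE 1.68, adjusted p = 0.0363). In both, replicate 3 was more than 10-fold above the other AICAR GFP-positive libraries and still far below the untreated one. Meg3, in an entry joined with 3 microRNA genes, had 189.7, 197 and 372 CPM in AICAR GFP-positive cells and 1742 CPM in untreated cells (log2 fold change -2.79, SE 0.40, adjusted p = 0.00742). Plagl1, a zinc finger factor that activates other imprinted genes, had 2.09, 2.98 and 15.0 CPM against 738 CPM in untreated cells. Snrpn, in an entry joined with Snurf, was one of those that rose, at 114, 203 and 181 CPM in AICAR GFP-positive cells and 50.8 CPM in untreated cells (log2 fold change 1.71, SE 0.39, adjusted p = 0.0233). The joint entry of Xist and Tsix, the RNAs that start and oppose X inactivation, had 40.7, 75.2 and 49.4 CPM in AICAR GFP-positive cells and 2.37 CPM in untreated cells, and the files do not divide it between the overlapping genes.

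Immune genes fell in 25 of 34 cases (median -3.20; 15 fell without replicate 2), and none rose by edgeR, by DESeq2 or at an unadjusted p below 0.05. B2m, the constant chain of class I molecules, had 5.07, 11.1 and 26.4 CPM in AICAR GFP-positive cells and 132 CPM in untreated cells (log2 fold change -3.24, SE 0.76, adjusted p = 0.0249). Isg15, a ubiquitin-like interferon target, had 0, 0.291 and 0.714 CPM against 31.4 CPM in untreated cells. Ifitm2, a membrane protein against virus entry that ES cells express, had no call, at 205, 186 and 139 CPM in AICAR GFP-positive cells and 118 CPM in untreated cells (adjusted p = 0.129). Of complement and chemokine genes, 12 of 13 fell (median -5.38, or -5.22 with genes unread in 1 group at their 3-read bound; 7 fell without replicate 2). Ptgs2 (COX-2), the inducible prostaglandin enzyme, had 0.403, 0.509 and 2.50 CPM in AICAR GFP-positive cells and 73.8 CPM in untreated cells.

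The AICAR GFP-positive libraries lay close together for most genes. Of 8674 genes with a mean of at least 10 CPM in them, 527 (6.08%) differed more than 2-fold between the highest and the lowest library. Replicate 3 was the highest for 332 of these and the lowest for 177, whereas replicates 1 and 2 were more than 2-fold apart for 75 genes. Replicate 3 lay more than 2-fold above both others for 203 genes and more than 2-fold below both for 62. The listed pluripotency genes took 1.02, 1.03 and 0.840% of reads in AICAR GFP-positive replicates 1, 2 and 3 and 0.0899% in untreated cells.

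The 10 largest rises and 10 largest falls among called genes, with a mean above 5 log2 CPM in 1 of the groups, added genes outside the lists. Cyp2b23, a cytochrome P450, had 106, 57.7 and 44.4 CPM in AICAR GFP-positive cells and no read in untreated cells, at least 192-fold higher. Tcf15, a helix-loop-helix factor of somites and of ES cells about to leave the naive state, had 198, 169.5 and 91.1 CPM in AICAR GFP-positive cells and 0.747 CPM in untreated cells (log2 fold change 7.66, SE 0.79, adjusted p = 0.00407). Zyg11a, a substrate receptor of ubiquitin ligases, had 53.1, 63.6 and 41.8 CPM against 0.373 CPM in untreated cells. Hsf2bp, a partner of recombination proteins in meiosis, had 70.2, 66.1 and 53.4 CPM against 0.373 CPM in untreated cells. The others that rose were Mep1b, Gdf3, Tdh, Dazl and the unnamed transcripts 2410141K09Rik and 2410007B07Rik. On the falling side, Lum (lumican) had 0, 0 and 0.119 CPM in AICAR GFP-positive cells and 304 CPM in untreated cells (adjusted p = 0.00165), and Krt15 had 0, 0 and 0.119 CPM against 229 CPM. No AICAR GFP-positive library had a read of Rbms3, an RNA-binding protein of connective tissue, Mgp, an inhibitor of calcification, Trim29 or Agtr2, an angiotensin receptor. Rbms3 had 64.1 CPM in untreated cells, at least 739-fold lower in AICAR GFP-positive cells, and Agtr2 had 40.2 CPM, at least 463-fold lower. Krt1, Krt4, Col3a1 and Lox completed the set.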

How the data were processed

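RNA of mouse ES cell cultures was sequenced after a stranded mRNA library preparation, per the labels' protocols. Per the submitters' processing notes the tools were bcl2fastq, CASAVA 1.8.2, Trimmomatic 0.3.3, TopHat2 2.0.14 and Bowtie2 2.2.5, with the mm9 genome. Per the file headers, the authors counted reads per RefSeq gene with rpkmforgenes, leaving out 3' UTRs. The deposited files hold these read counts and RPKM values side by side in 22756 entries, of which 974 are joint entries of overlapping genes and 448 share a name with another entry.

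The counts of 4 libraries were fitted with edgeR 4.0.16 in R 4.3.3 (TMM scaling, filterByExpr, minimum count 10 and minimum total 15, quasi-likelihood F test). CPM was computed on the scaled library sizes. The deposited RPKM values were used to compare levels between genes. For Pou5f1 and most AMPK subunits named, they are also printed for both groups, without the TMM scaling of the fit. A gene without reads in a group was set to a floor of 3 reads over that group for a bound. Reads in genes ranged from 7712882 to 14233421 over the 4 libraries, the 3-read floor covers counting error only, and the common dispersion was 0.0888 on 2 residual degrees of freedom. Alternatives were DESeq2 1.42.0, other scalings, no filter, all 19 libraries in 1 fit, a 2-fold null (glmTreat), leaving out each AICAR GFP-positive replicate, the same-project ratio and, added after seeing the data, the sequencing project as a term. The fit was also run on simulated data with the common dispersion for every gene, no project effect and no divergent library. The real libraries differ from that, so the run is no support for the calls. Promoters came from the RefSeq table of GRCm38.p6, a build other than that of the counts, matched by symbol. The members of the gene lists and the lists themselves were chosen with earlier results of these data known. Beside list members, the 10 largest rises and 10 largest falls were named among called genes that reached a mean of 5 log2 CPM in the higher group and had every AICAR GFP-positive library on the same side of the untreated one.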

Additional observations from a re-analysis of the deposited data

How the results depend on the processing

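No paired analysis was possible because the untreated group has 1 library, whose label gives it no replicate number, so the groups share fewer than 2 numbers. The count of genes that rose was 3430, and 1120 when tested against a 2-fold change; the count that fell was 3453, and 1851 against a 2-fold change. Leaving out 1 AICAR GFP-positive replicate gave between 1311 and 4500 genes that rose and between 1552 and 4913 that fell, lowest without replicate 2 and highest without replicate 3; without replicate 1 it was 2079 that rose. DESeq2 called 3574 genes as higher and 3323 as lower, and the fit of all 19 libraries 4806 and 5084. A fit with the sequencing project as a further term, chosen after seeing the data, leaves 1 residual degree of freedom. Its group difference comes from replicate 3 against the untreated library alone, with the spread taken from replicates 1 and 2. Its calls have no replicate support and are not counted here. The cause of these differences was not tested. No gene called in the main fit was called in the opposite direction by an alternative with a test. Alternatives could differ from each other: Apoa1, without a call in the main fit, was higher with the project term and lower without replicate 3. In the same-project ratio of replicate 3 to the untreated library, which has no test, 6 named genes without a call lay on the other side of 0, namely Amot, Cdx2, Pax6, Prkaa2, Prkag1 and Sox7. Of 77 lists, 69 had more calls in 1 direction, and 63 to 69 of those kept it under each alternative; the lists that lost or turned it in at least 1 were the endothelial, glycolysis, BAF, linker histone, fatty acid, FGF-ERK and visceral endoderm lists. The X inactivation list would have no direction without replicate 3 or with all 19 libraries if the joint entry of Xist and Tsix counted once. Of 267 named genes with a fit, 41 lost their call without replicate 2, with adjusted p between 0.0502 and 0.142, among them Cd68, Col1a1, Col1a2, Klf4, Fgf5, H19, Igf2, Lmna, Wwtr1, Sox1, Sox9, Gli2, Snrpn, Fhl2, Ankrd1, Fasn, Atp5b, B2m, Tgfbr2, Epcam, Nid2 and Prkab2. Without replicate 1, 12 lost it, among them Afp, Fos, Hspa5, Lifr, Mki67, Mkl1 and Slc29a2. Without replicate 3, 37 gained one and 0 lost one; Apoa1, without a call, had a log2 fold change of -1.94 then, with a call, and of 0.66 without replicate 1. DESeq2 did not call 8 genes, namely Actg2, Afp, Ankrd1, Col3a1, Hand2, Igfbp5, Krt14 and Sox9. It called 7 named genes that the main fit did not, namely Amn, Axin2, Fgfr1, Pou3f1, Spp1, Tert and Zscan4c. Against a 2-fold change 41 named genes lost their call, among them Col1a1, H19, Igf2, Klf4, Srf and Epcam. The share of promoters with GGAATG was 16.6% on both strands and 8.74% on the sense strand. With 1 untreated library, its own variation is unmeasured.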
